A study of Mus musculus with 12 samples.

Results

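In B16F10 cells, a mouse melanoma line, 10 genes of early-response factors were described, of 55421 genes in each of the 2 deposited tables. They are the nuclear receptor genes Nr4a1, Nr4a2 and Nr4a3, the FOS family members Fos, Fosb, Fosl1 and Fosl2, the JUN family members Jun and Junb, and Egr1. The genes were chosen by name, with no threshold but with values of these same libraries already known, so their levels and differences are given as descriptions without a test. RNA-seq libraries came from 4 groups of 3: Bub1KO cells given 8 Gy of radiation, vector control (VC) cells given 8 Gy, Bub1KO cells without irradiation, and VC cells without irradiation. Bub1KO cells had Bub1, a kinase gene of the spindle checkpoint, disrupted with CRISPR-Cas9. The series addresses how loss of Bub1 alters the response of these tumour cells to radiation. For the time between irradiation and RNA extraction, and for how many clones the Bub1KO cells come from, nothing is given in the sources used here. No label names separate cultures within a group, so the adjusted p-values rest on a spread between libraries that may be technical.

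Immediate-early genes are transcribed soon after a stimulus without new protein synthesis, largely through serum response factor with its TCF partners and through CREB, which kinases of the ERK, JNK and p38 pathways activate. FOS and JUN proteins pair through leucine zippers to form AP-1, and Egr1 is a zinc finger factor that binds GC-rich sites and is held back by NAB corepressors. The NR4A proteins are orphan nuclear receptors that can bind DNA as monomers at NBRE sites, and in melanocytes their genes are known to respond to melanocortin signalling through cyclic AMP.

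Promoter sequences of 8 of the 10 genes were matched by symbol in RefSeq (GRCm38.p6), each from 250 bases before the gene start to 50 bases after it. Fosl1 and Egr1 were not matched. The windows were searched on both strands for the CRE (TGACGTCA), its shorter core (TGACG), the AP-1 site (TGANTCA), the NBRE (AAAGGTCA), the EGR site (GCGTGGGCG) and the CArG box of the serum response element. A full CRE also holds the core on both strands. The core stood 4 times in each of the 3 NR4A windows, 2 times in Fos, 1 time each in Fosb and Junb, and 0 times in Fosl2 and Jun. Of all 32851 promoter windows of this length, 20.8% held at least 1 core, 1.03% at least 3 and 0.231% at least 4. These shares of all windows were not matched for GC content. That content was 72.3% in the Nr4a1 window, 81.7% in Nr4a2, 64.7% in Nr4a3 and 58.7% in Fos. The other motifs matched in 0 of the 8 windows, and in 1.79% (CRE), 7.81% (AP-1), 1.51% (NBRE), 0.612% (EGR) and 1.63% (CArG box) of all windows. A match is a run of letters and not a shown binding site. Sequence outside the windows and variant letters were not searched, so 0 matches do not show that a gene lacks a site. The windows of the NR4A genes and of Fos are printed because they hold the most matches, while the RNA of these 4 genes differed in its pattern over the groups. They lie at chr15:101266596-101266895 on the plus strand (Nr4a1, inside the annotated gene), chr2:57123954-57124253 on the minus strand (Nr4a2), chr4:48045055-48045354 on the plus strand (Nr4a3, its later bases inside the annotated gene from 48045153 on, the match at -147 included) and chr12:85473640-85473939 on the plus strand (Fos). They read 5′ to 3′ along the gene, with core matches of either strand in capitals.
Nr4a1: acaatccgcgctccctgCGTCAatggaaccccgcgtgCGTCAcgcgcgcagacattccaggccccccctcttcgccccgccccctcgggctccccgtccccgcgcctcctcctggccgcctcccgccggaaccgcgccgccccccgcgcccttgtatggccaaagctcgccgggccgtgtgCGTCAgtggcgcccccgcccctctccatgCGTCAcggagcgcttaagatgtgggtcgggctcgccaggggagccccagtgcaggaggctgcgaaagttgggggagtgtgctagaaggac
Nr4a2: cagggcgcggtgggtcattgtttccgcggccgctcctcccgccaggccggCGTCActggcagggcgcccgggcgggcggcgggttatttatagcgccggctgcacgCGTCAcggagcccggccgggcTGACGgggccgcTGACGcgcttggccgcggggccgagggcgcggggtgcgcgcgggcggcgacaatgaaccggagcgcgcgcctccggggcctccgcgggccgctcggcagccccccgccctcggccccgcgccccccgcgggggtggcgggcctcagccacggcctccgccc
Nr4a3: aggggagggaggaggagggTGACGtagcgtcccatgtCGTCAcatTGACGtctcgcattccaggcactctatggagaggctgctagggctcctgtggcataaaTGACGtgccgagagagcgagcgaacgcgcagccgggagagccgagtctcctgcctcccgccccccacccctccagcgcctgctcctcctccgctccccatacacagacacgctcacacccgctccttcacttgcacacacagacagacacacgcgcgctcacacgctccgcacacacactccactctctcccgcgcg
Fos: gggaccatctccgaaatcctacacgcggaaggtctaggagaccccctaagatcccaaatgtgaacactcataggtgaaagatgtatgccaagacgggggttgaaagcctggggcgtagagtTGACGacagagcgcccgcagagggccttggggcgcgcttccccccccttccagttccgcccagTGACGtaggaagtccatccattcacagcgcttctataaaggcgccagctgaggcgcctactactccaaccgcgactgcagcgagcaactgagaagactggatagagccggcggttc

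Counted from the gene start, core matches of Nr4a1 began at -233, -213, -69 and -40, those of Nr4a2 at -200, -144, -123 and -111, and those of Nr4a3 at -231, -213, -205 and -147. Those of Fos began at -129 and -66, that of Fosb at -60 and that of Junb at -106.

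**Figure D1:**
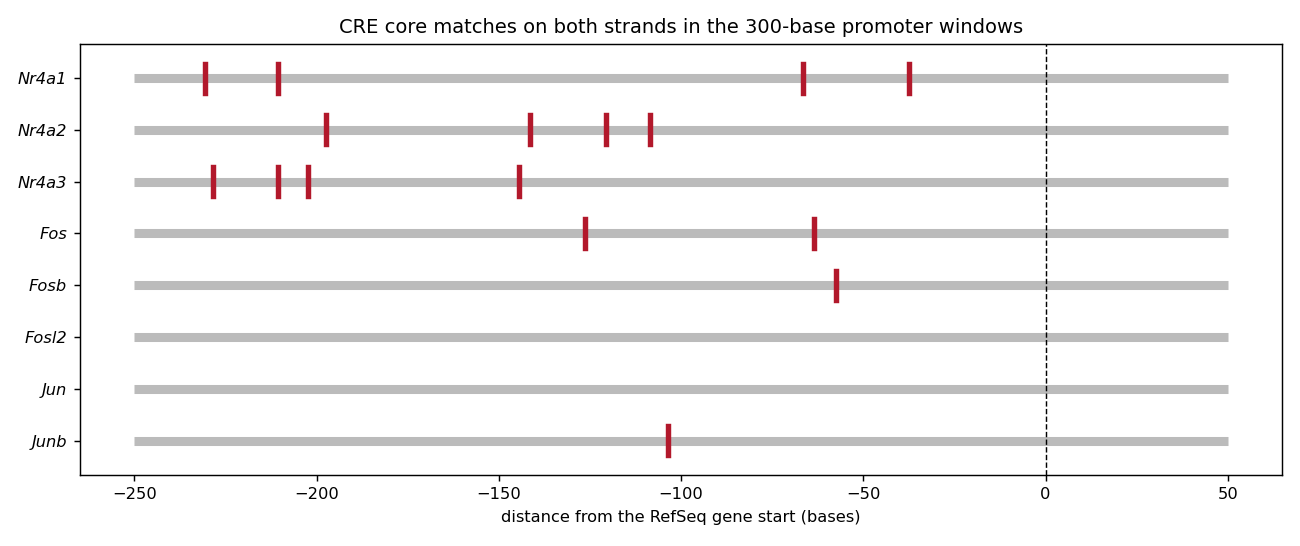
Positions of CRE core (TGACG) matches of either strand (red ticks) in 8 promoter windows (grey bars), by distance in bases from the RefSeq gene start (dashed line). Each NR4A window holds 4 matches, Fos 2, Fosb and Junb 1 each, and Fosl2 and Jun 0.

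Reads in genes numbered 19380726 to 33087366 per library. Bub1 had 886 to 1119.8 normalized counts in irradiated Bub1KO, 1461 to 1507 in irradiated VC, 1565 to 1834 in unirradiated Bub1KO and 2752 to 3185 in unirradiated VC, lower in Bub1KO in each treatment without overlap. All 6 melanocyte markers were expressed, and they summed to 454505 to 484507 in irradiated Bub1KO, 323720 to 343372 in irradiated VC, 439842 to 453797 in unirradiated Bub1KO and 292438 to 323654 in unirradiated VC. The leukocyte markers summed to 56.6 to 76.2 in irradiated and 5.80 to 13.2 in unirradiated libraries, where 1 of 7 (Lyz2) passed the filter, Ptprc did not exceed 1.29, and Cd3e and Adgre1 were at 0 in every library. Fibroblast and endothelial markers (1 of 7 passed, Pdgfra) summed to 48.5 to 56.8 in irradiated Bub1KO, 62.6 to 70.4 in irradiated VC, 79.8 to 112 in unirradiated Bub1KO and 102 to 155 in unirradiated VC. Epithelial markers (1 of 4 passed, Cdh1) summed to 119.7 to 133 in irradiated Bub1KO, 74.0 to 101 in irradiated VC, 74.8 to 96.6 in unirradiated Bub1KO and 57.2 to 78.7 in unirradiated VC. Mitochondrial reads made up 3.53% to 3.93% of irradiated and 2.31% to 2.93% of unirradiated libraries, and the part of these values and of the marker sums in the differences with irradiation and genotype was not tested. Replicate 1 of unirradiated Bub1KO stood apart in its log2 gap between genes of high and low GC content, at -0.70, against 0.03 and 0.07 in the other libraries of its group. That gap was 0.08 to 0.34 in irradiated libraries and -0.36 to -0.13 in unirradiated VC.

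Nr4a3 (GRCm38 chromosome 4, 48045153 to 48086447), an orphan receptor also called NOR1, was higher in Bub1KO than in VC both with and without irradiation. Its normalized counts, which are reads divided by a size factor per library, were 1874, 1828 and 1706 in irradiated Bub1KO and 1372, 1451 and 1363 in irradiated VC. Without irradiation they were 1026, 1042 and 969 in Bub1KO and 467, 441 and 452 in VC. The 4 groups did not overlap, and they averaged 1803 ± 86.9 in irradiated Bub1KO, 1395 ± 48.7 in irradiated VC, 1012 ± 38.5 in unirradiated Bub1KO and 453 ± 12.8 in unirradiated VC (SD, n = 3 each). Without irradiation the mean in Bub1KO was 2.23 times that in VC, a difference of 1.16 in log2(normalized count + 1) with SE 0.0932, and after 8 Gy it was 1.29 times (0.37, SE 0.0623). Irradiated cells were above unirradiated cells by 0.83 log2 in Bub1KO and by 1.62 in VC (SE 0.0696 each). The Bub1KO minus VC difference after 8 Gy less that without irradiation was -0.79 (SE 0.0984), and it ranged from -0.82 to -0.75 when any 1 library was left out. In bulk RNA, fewer cells with a transcript and less of it per cell cannot be told apart.

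Nr4a1, the receptor gene of Nur77 (chromosome 15, 101254269 to 101274795), had 839, 778 and 841 normalized counts in irradiated Bub1KO, against 1025, 1151 and 1062 in irradiated VC. Without irradiation it had 725, 1055 and 1065 in Bub1KO and 989, 799.7 and 965 in VC. Every irradiated Bub1KO library was below every irradiated VC library, while the unirradiated genotypes overlapped. The Bub1KO minus VC difference was -0.40 log2 after 8 Gy (SE 0.0704) and 0.03 without irradiation (SE 0.161), where it was 0.21 without Bub1KO replicate 1, the library with the wide GC gap, and -0.07 without VC replicate 2. Irradiated minus unirradiated was -0.19 in Bub1KO, with overlap, and 0.24 in VC, without overlap (SE 0.132 each). Both moved with single libraries, to -0.37 in Bub1KO without unirradiated replicate 1 and -0.10 without unirradiated replicate 3, and to 0.14 in VC without unirradiated replicate 2. With the GC trend of each library removed they were -0.44 in Bub1KO and -0.09 in VC.

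Nr4a2, the receptor gene of Nurr1 (chromosome 2, 57106830 to 57124003), had 209, 200.2 and 176 normalized counts in irradiated Bub1KO and 223, 219 and 264 in irradiated VC. It had 194, 204 and 194 in unirradiated Bub1KO and 209.7, 201 and 210.4 in unirradiated VC. Irradiated Bub1KO lay below irradiated VC without overlap (-0.27, SE 0.112), and the unirradiated genotypes overlapped (-0.07, SE 0.116). Irradiated minus unirradiated was -0.02 in Bub1KO, with overlap, and 0.18 in VC, without overlap (SE 0.106 each). Without irradiated Bub1KO replicate 3 the value in Bub1KO was 0.05, and without irradiated VC replicate 3 that in VC was 0.09.

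To compare genes, reads were divided by exon length, as RPKM (reads per kilobase of exon, scaled to the reads in genes of each library). Of the summed NR4A RPKM, Nr4a3 made up 51.7% ± 1.43 in irradiated Bub1KO, 38.9% ± 0.758 in irradiated VC, 35.0% ± 4.63 in unirradiated Bub1KO and 19.6% ± 1.23 in unirradiated VC (SD, n = 3 each). Nr4a1 made up 40.1% in irradiated Bub1KO, 51.4% in irradiated VC, 55.0% in unirradiated Bub1KO and 67.2% in unirradiated VC. For both genes the libraries of irradiated VC and unirradiated Bub1KO overlapped, and those of irradiated Bub1KO and unirradiated VC lay at opposite ends without overlap with any other group. In irradiated Bub1KO Nr4a3 had the highest mean level of the 10 genes (12.7 ± 0.736 RPKM), above Nr4a1 (9.87 ± 0.493) and Jun (8.03 ± 0.563), with no overlap between these 3. In the other groups Nr4a1 came first, at 13.1 ± 0.642 RPKM in irradiated VC, 10.8 ± 2.17 in unirradiated Bub1KO and 10.4 ± 1.16 in unirradiated VC.

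**Figure D2:**
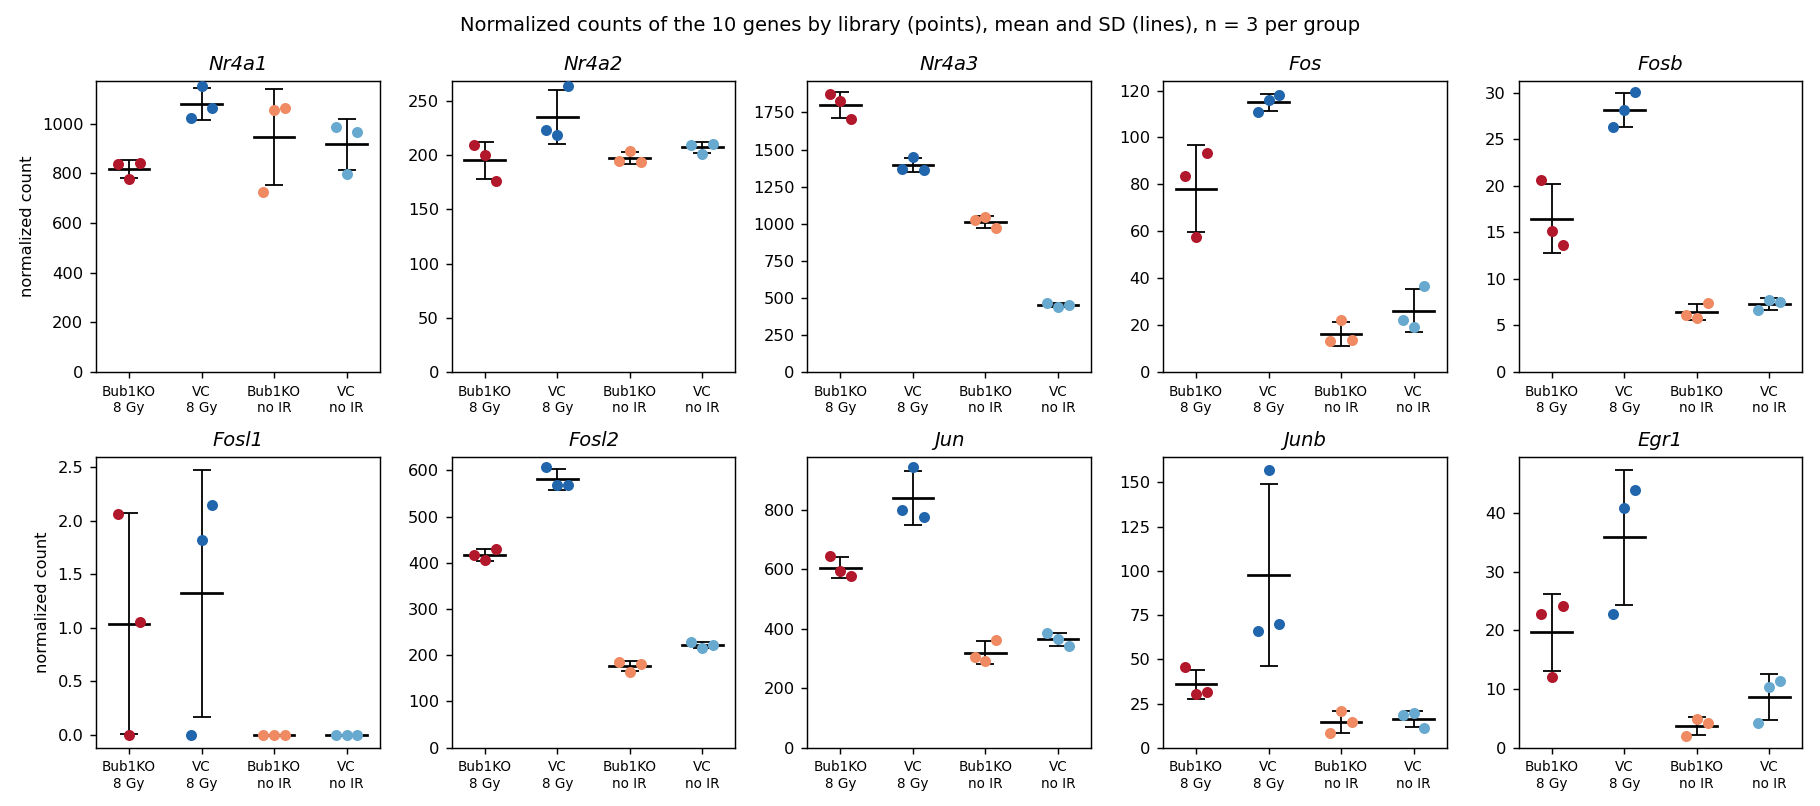
Normalized counts of the 10 genes, each panel with its own linear axis, in irradiated Bub1KO, irradiated VC, unirradiated Bub1KO and unirradiated VC (points, libraries; lines, mean and SD, n = 3). Nr4a3 falls into 4 separate groups with Bub1KO above VC in each treatment, while Fos, Fosb, Fosl2, Jun and Junb are lower in irradiated Bub1KO than in irradiated VC.

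Fos, the founding gene of its family (chromosome 12, 85473890 to 85477273), was higher in irradiated than in unirradiated cells of both genotypes. It had 83.6, 57.6 and 93.5 normalized counts in irradiated Bub1KO and 111, 116 and 118 in irradiated VC. Unirradiated cells had 13.2, 22.2 and 13.7 in Bub1KO and 22.4, 19.3 and 36.5 in VC. Irradiated Bub1KO lay wholly below irradiated VC, and the unirradiated genotypes overlapped. Irradiated means were 4.78 times unirradiated means in Bub1KO (2.20 log2) and 4.41 times in VC (2.15, SE 0.263 each). Bub1KO minus VC was -0.58 after 8 Gy (SE 0.171), or -0.38 without Bub1KO replicate 2, and -0.63 without irradiation (SE 0.322), or -0.37 without VC replicate 3.

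Fosb, a FOS member best known from lasting responses in neurons (chromosome 7, 19302696 to 19310051), had 20.6, 15.2 and 13.7 normalized counts in irradiated Bub1KO and 26.3, 28.1 and 30.0 in irradiated VC. It had 6.10, 5.76 and 7.37 in unirradiated Bub1KO and 6.63, 7.74 and 7.56 in unirradiated VC. It reached 10 in the 6 irradiated libraries alone, so it passed the filter through the groups where it was high. Irradiated minus unirradiated was 1.22 log2 in Bub1KO and 1.81 in VC (SE 0.252 each). Irradiated Bub1KO lay below irradiated VC without overlap (-0.76, SE 0.248), and the unirradiated genotypes overlapped (-0.17, SE 0.325), with -0.11 without Bub1KO replicate 2 and -0.26 without Bub1KO replicate 3.

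Fosl2, which encodes Fra-2 (chromosome 5, 32135801 to 32157842), had 416, 405 and 431 normalized counts in irradiated Bub1KO and 607, 567 and 567 in irradiated VC. It had 186, 165 and 180.1 in unirradiated Bub1KO and 229.6, 217 and 222 in unirradiated VC. The 4 groups did not overlap, with Bub1KO below VC in each treatment. Bub1KO minus VC was -0.48 after 8 Gy (SE 0.0758) and -0.33 without irradiation (SE 0.121). Irradiated minus unirradiated was 1.24 in Bub1KO and 1.38 in VC (SE 0.0859 each).

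Fosl1, which encodes Fra-1 (chromosome 19, 5447547 to 5455946), was barely detected. Its reads were 2, 0 and 1 in irradiated Bub1KO, 0, 2 and 2 in irradiated VC, and 0 in all 6 unirradiated libraries. It did not pass the filter, and no fold is given. Of the summed FOS RPKM, Fosl2 held 54.6% in irradiated Bub1KO, 52.6% in irradiated VC, 69.7% in unirradiated Bub1KO and 65.7% in unirradiated VC. Fos held 41.4% in irradiated Bub1KO, 42.9% in irradiated VC, 26.3% in unirradiated Bub1KO and 30.9% in unirradiated VC.

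Jun, the classical partner of FOS proteins in AP-1 (chromosome 4, 95049034 to 95052222), was higher in irradiated cells and, among these, lower in Bub1KO. It had 645, 594 and 578 normalized counts in irradiated Bub1KO and 799.9, 946 and 777 in irradiated VC. Unirradiated cells had 306, 291 and 363 in Bub1KO and 386, 365 and 343 in VC, which overlapped. Bub1KO minus VC was -0.47 after 8 Gy (SE 0.0859) and -0.19 without irradiation (SE 0.124), or -0.13 without Bub1KO replicate 2. Irradiated minus unirradiated was 0.92 in Bub1KO and 1.20 in VC (SE 0.106 each), or 0.72 and 0.97 with GC trends removed. Junos, an antisense neighbour of Jun, had 13.7 to 25.3 normalized counts in irradiated Bub1KO and 17.1 to 18.2 in irradiated VC. It had 6.32 to 10.7 in unirradiated Bub1KO and 4.14 to 7.74 in unirradiated VC. The strand setting of the counting is not given in the sources used here, so how any shared reads were split between the pair is uncertain.

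Junb, a JUN member that can oppose Jun (chromosome 8, 84974484 to 84978718), had the largest difference of the 9 genes between irradiated genotypes. It had 45.4, 30.3 and 31.5 normalized counts in irradiated Bub1KO, against 66.1, 157 and 69.7 in irradiated VC. Unirradiated cells had 8.13, 20.6 and 14.7 in Bub1KO and 18.2, 19.3 and 11.3 in VC, with overlap. Irradiated Bub1KO lay wholly below irradiated VC, at -1.33 log2 (SE 0.286), or -0.93 without VC replicate 2, the library at 157. Irradiated minus unirradiated was 1.31 in Bub1KO and 2.43 in VC (SE 0.370 each). The genotype difference after 8 Gy less that without irradiation was -1.12 (SE 0.523), or -0.72 without that VC library. With GC trends removed, irradiated minus unirradiated was 0.91 in Bub1KO and 1.76 in VC. The genotype difference after 8 Gy was then -1.05, and -0.85 less that without irradiation. The unirradiated genotype difference was -0.21 (SE 0.375), and 0.12 without Bub1KO replicate 1.

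Jund, the third JUN gene and not among the 10, held most of the JUN family. Its share of the summed RPKM was 75.7% ± 2.14 in irradiated Bub1KO, 65.6% ± 1.95 in irradiated VC, 83.6% ± 1.39 in unirradiated Bub1KO and 76.1% ± 3.50 in unirradiated VC (SD, n = 3 each). The share of Jun was 22.5% in irradiated Bub1KO, 29.8% in irradiated VC, 15.4% in unirradiated Bub1KO and 22.5% in unirradiated VC. In each treatment the Bub1KO libraries lay below the VC libraries in this share without overlap. A share also moves with the other genes of the sum, and Jun counts themselves overlapped between unirradiated genotypes. After 8 Gy Jund averaged 1075 ± 162 normalized counts in Bub1KO and 971 ± 137 in VC (limma adjusted p = 0.370). Without irradiation Jund averaged 907 ± 76.1 in Bub1KO and 655 ± 98.4 in VC (limma adjusted p = 0.0833). Junb held 1.83% in irradiated Bub1KO, 4.63% in irradiated VC, 0.989% in unirradiated Bub1KO and 1.41% in unirradiated VC.

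**Figure D3:**
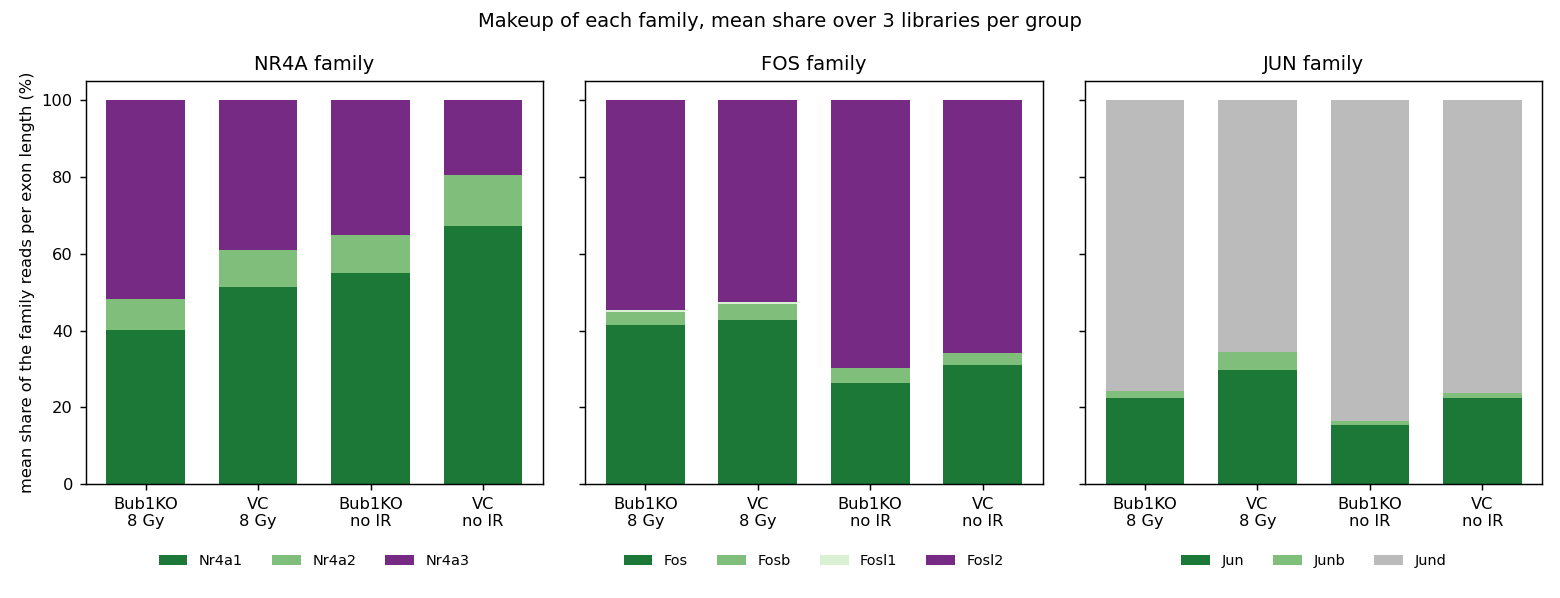
Mean share of the summed reads per exon length held by each gene of the NR4A, FOS and JUN families (percent, n = 3), in irradiated Bub1KO, irradiated VC, unirradiated Bub1KO and unirradiated VC. The Nr4a3 share is 51.7%, 38.9%, 35.0% and 19.6% in these groups, and Jund fills most of the JUN bar in each.

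Egr1 (chromosome 18, 34859823 to 34864984) had 22.7, 12.1 and 24.2 normalized counts in irradiated Bub1KO and 22.8, 40.8 and 44.0 in irradiated VC. It had 2.03, 4.94 and 4.21 in unirradiated Bub1KO and 4.14, 10.3 and 11.3 in unirradiated VC. These rest on 12 to 23 reads per library in irradiated Bub1KO, 32 to 45 in irradiated VC, 2 to 6 in unirradiated Bub1KO and 5 to 9 in unirradiated VC. Irradiated and unirradiated libraries did not overlap in either genotype, with differences of 2.13 log2 in Bub1KO and 1.99 in VC (SE 0.419 each). The value in VC was 1.64 with GC trends removed, and that in Bub1KO was 1.59 with a pseudocount of 4. Bub1KO and VC overlapped in both treatments. Their difference was -0.84 after 8 Gy (SE 0.313), or -0.54 without Bub1KO replicate 2, and -0.98 without irradiation (SE 0.475).

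**Figure D4:**
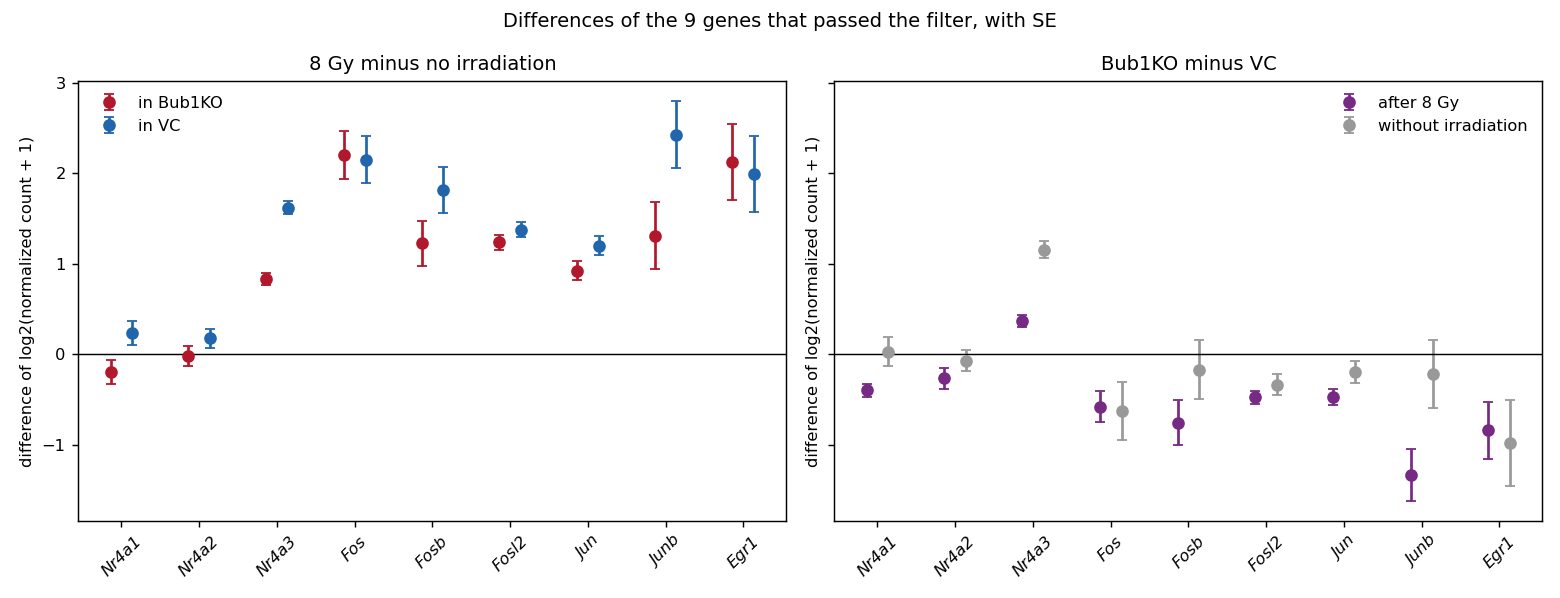
Differences of log2(normalized count + 1), with SE as bars, for the 9 genes that passed the filter: left, 8 Gy minus no irradiation in Bub1KO and in VC, right, Bub1KO minus VC after 8 Gy and without irradiation. On the left Nr4a3, Fos, Fosb, Fosl2, Jun, Junb and Egr1 lie above 0.8 in both genotypes, and on the right Nr4a3 lies above 0 in both treatments (0.37 and 1.16).

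Side by side, 9 of the 10 genes could be compared, of which Fosb and Egr1 reached 10 normalized counts in 6 and 8 libraries and needed the irradiated ones to pass. With irradiation in Bub1KO, 7 were higher without overlap and 0 lower (Nr4a1 and Nr4a2 overlapped), where 29.1% of all 14721 genes tested were higher and 25.8% lower in that way. With irradiation in VC, 9 were higher and 0 lower, where 33.6% of all genes were higher and 31.8% lower. After 8 Gy, Bub1KO was above VC without overlap for 1 gene (Nr4a3) and below it for 7, where 22.1% of all genes were above and 22.6% below. Without irradiation 1 was above (Nr4a3) and 1 below (Fosl2), where 12.7% of all genes were above and 12.9% below. Nothing is read from these counts, since the genes were chosen with these libraries known, and comparisons within a genotype or treatment share libraries.

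Genes whose pattern over the 12 libraries lay nearest to that of a member were found by the root-mean-square difference of log2 values, each centred on unirradiated VC. For Nr4a1 they were Tm2d3 (0.0882), Sardh (0.0945) and Slc35c2 (0.0981). For Fos they were Plscr2 (0.245), Krt7 (0.294) and Fam71f1 (0.310). For Jun they were Osmr (0.143), Rhob (0.146) and H2afj (0.150), and for Egr1 they were Sod3 (0.446), Tnfrsf21 (0.461) and Shc3 (0.467).

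The pathway around the 10 genes was described with 6 lists of other genes, tested with limma over all 14721 genes at an adjusted p of 0.05. Of all genes, 25.4% rose and 23.9% fell with irradiation in Bub1KO, and 27.6% rose and 25.8% fell with irradiation in VC. Bub1KO was higher than VC for 14.3% and lower for 16.4% after 8 Gy, and higher for 2.31% and lower for 1.71% without irradiation. The interaction, which is the Bub1KO minus VC difference after 8 Gy less that without irradiation, was positive for 0.136% and negative for 0.414%. Leaving out unirradiated Bub1KO replicate 1 raised the genes called between unirradiated genotypes from 591 to 2736 of all 14721. It raised those called with irradiation in Bub1KO from 7269 to 7567, and in the interaction from 81 to 1447. List counts without that library are to be read beside these totals. The median log2 difference of all genes was 0.03 with irradiation in Bub1KO, 0.02 with irradiation in VC, and -0.01 for Bub1KO against VC in each treatment.

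Upstream kinases, SRF and TCF partners and CREB coactivators changed in both directions. Of 28 tested, 6 rose and 5 fell with irradiation in Bub1KO (median -0.01), or 7 and 7 without unirradiated Bub1KO replicate 1 (median -0.04), and 3 rose and 8 fell in VC (median 0.01). With GC trends removed, 6 rose and 9 fell with irradiation in Bub1KO (median -0.07), and 2 rose and 10 fell in VC (median -0.13). After 8 Gy, 3 were higher and 7 lower in Bub1KO than in VC (median -0.03), or 3 and 9 with GC trends removed. Without irradiation 0 were higher and 2 lower (median -0.10), or 3 and 4 without Bub1KO replicate 1. Mapk3, which encodes ERK1, averaged 4631 ± 260.2 normalized counts in irradiated Bub1KO and 3113 ± 640.0 in unirradiated Bub1KO (log2 difference 0.59, SE 0.121, adjusted p = 0.0011). It was also higher than in irradiated VC (3357 ± 253; 0.47, SE 0.0668, adjusted p = 0.000255). Map2k2, which encodes the ERK kinase MEK2, was lower in irradiated Bub1KO (1537 ± 148) than in irradiated VC (2517 ± 476; -0.70, SE 0.110, adjusted p = 0.000476), a call lost with no filter and in the fit on all 12 libraries (adjusted p up to 0.104). Mef2c, a MADS-box factor, fell with irradiation by 0.65 log2 in Bub1KO (adjusted p = 8.87e-06) and by 0.97 in VC (adjusted p = 2.58e-07, SE 0.0744 each).

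Of 13 tested bZIP relatives and partners of FOS and JUN, 2 rose and 5 fell with irradiation in Bub1KO (median -0.02), or 2 and 7 without unirradiated Bub1KO replicate 1 (median -0.23). In VC 5 rose and 4 fell (median 0.29, and -0.20 with GC trends removed). After 8 Gy, 0 were higher and 4 lower in Bub1KO than in VC (median -0.12), and without irradiation 2 were higher and 0 lower (median -0.06), or 3 and 2 without Bub1KO replicate 1. Atf3, a stress-induced factor that pairs with Jun, averaged 455 ± 40.4 normalized counts in irradiated Bub1KO, 551 ± 39.6 in irradiated VC, 407 ± 69.7 in unirradiated Bub1KO and 148 ± 12.8 in unirradiated VC. It was higher in Bub1KO than in VC without irradiation (1.44, SE 0.154, adjusted p = 0.0015) and rose with irradiation in VC (1.89, SE 0.127, adjusted p = 8.31e-08). Its interaction was -1.72 (SE 0.180, adjusted p = 0.000754). Jdp2, a repressor that pairs with Jun, averaged 382 ± 16.4 in irradiated Bub1KO, 505 ± 43.2 in irradiated VC, 646 ± 237 in unirradiated Bub1KO and 270.4 ± 16.2 in unirradiated VC. Its interaction was -1.58 (SE 0.293, adjusted p = 0.0279), a call lost on leaving out any 1 of 10 of the 12 libraries (adjusted p up to 0.0938). Crem, a cyclic AMP responsive factor, rose with irradiation by 1.39 in Bub1KO (adjusted p = 2.13e-07) and by 1.69 in VC (adjusted p = 4.27e-08, SE 0.105 each).

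Other immediate-early genes rose more often than they fell with irradiation. Of 34 tested of 40, 16 rose and 4 fell in Bub1KO (median 0.43), or 17 and 6 without unirradiated Bub1KO replicate 1, and 19 rose and 3 fell in VC (median 0.52). After 8 Gy, 3 were higher and 12 lower in Bub1KO than in VC (median -0.14), and without irradiation 0 were higher and 2 lower (median -0.14), or 4 and 5 without Bub1KO replicate 1 (median -0.03). Plk2, a polo-like kinase gene, averaged 1455 ± 50.1 normalized counts in irradiated and 229 ± 27.1 in unirradiated Bub1KO (2.67, SE 0.101, adjusted p = 4.89e-10). In VC it averaged 1760.3 ± 67.6 in irradiated and 323 ± 37.1 in unirradiated cells (2.45, SE 0.101, adjusted p = 1.12e-09). Klf4, a Krüppel-like factor, fell with irradiation in Bub1KO (86.4 ± 19.4 against 184 ± 21.8 without it; -1.10, SE 0.170, adjusted p = 0.000123). In VC it averaged 127 ± 11.3 in irradiated and 155 ± 20.6 in unirradiated cells, which was not called, and neither was its interaction. Srf, the serum response factor gene, was lower in irradiated Bub1KO (366 ± 13.0) than in irradiated VC (682 ± 95.3; -0.89, SE 0.0963, adjusted p = 2.91e-05). Klf10, a TGF-beta inducible factor, was higher in irradiated Bub1KO (479 ± 20.4) than in irradiated VC (370.2 ± 15.5; 0.37, SE 0.0805, adjusted p = 0.00395).

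Of 14 tested among 23 reported AP-1 target genes, 11 rose and 0 fell with irradiation in Bub1KO (median 0.78), or 11 and 1 without unirradiated Bub1KO replicate 1, and 9 rose and 0 fell in VC (median 1.13). After 8 Gy, 4 were higher and 6 lower in Bub1KO than in VC (median -0.01), and without irradiation 3 were higher and 2 lower (median -0.13), or 4 and 4 without Bub1KO replicate 1 (median -0.01). Spp1, which encodes osteopontin, averaged 447 ± 33.7 normalized counts in irradiated Bub1KO, 251 ± 22.5 in irradiated VC, 9.35 ± 1.89 in unirradiated Bub1KO and 5.62 ± 1.60 in unirradiated VC. It rose with irradiation by 5.45 log2 in Bub1KO (adjusted p = 4.41e-10) and by 5.28 in VC (adjusted p = 6.06e-10, SE 0.204 each). Spp1 needed the irradiated libraries, where it was high, to pass the filter. So did Plau, at 7.43 ± 1.70 in unirradiated Bub1KO and 6.19 ± 1.39 in unirradiated VC. Both count among the genes that rose, so these counts are partly shaped by the filter. After 8 Gy Plau averaged 54.4 in Bub1KO and 43.9 in VC. After 8 Gy Spp1 was higher in Bub1KO than in VC (0.83, SE 0.0965, adjusted p = 5.4e-05).

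Of 11 tested among 14 reported EGR1 targets and NAB corepressors, 4 rose and 3 fell with irradiation in Bub1KO (median 0.08), or 3 and 4 without unirradiated Bub1KO replicate 1, and 5 rose and 3 fell in VC (median 0.22). After 8 Gy, 0 were higher and 6 lower in Bub1KO than in VC (median -0.24), and without irradiation 0 were higher and 3 lower (median -0.24), or 2 and 6 without Bub1KO replicate 1. Id3, an inhibitor of helix-loop-helix factors, was lower in irradiated Bub1KO (129 ± 26.7 normalized counts) than in irradiated VC (316 ± 51.6; -1.30, SE 0.158, adjusted p = 7.26e-05). Cdkn1a, the gene of the cell cycle inhibitor p21, rose with irradiation by 1.86 in Bub1KO (adjusted p = 4.27e-09) and by 1.55 in VC (adjusted p = 2.27e-08, SE 0.0892 each).

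Of 8 tested among 12 NR4A partners and reported targets, 4 rose and 0 fell with irradiation in Bub1KO (median 0.63, or 0.18 without unirradiated Bub1KO replicate 1), and 5 rose and 0 fell in VC (median 0.67). With GC trends removed these counts were 3 and 2 in Bub1KO and 5 and 3 in VC. After 8 Gy, 2 were higher and 4 lower in Bub1KO than in VC (median -0.16), or 2 and 2 with GC trends removed. Without irradiation 1 was higher and 0 lower (median -0.03), and the median was 0.19 with the same counts without Bub1KO replicate 1. Txnip, a thioredoxin inhibitor gene, averaged 5742 ± 176 normalized counts in irradiated Bub1KO, 2247 ± 161 in irradiated VC, 1703 ± 130.4 in unirradiated Bub1KO and 1029 ± 62.9 in unirradiated VC. It was higher in Bub1KO after 8 Gy (1.36, SE 0.0625, adjusted p = 2.07e-08) and without irradiation (0.73, SE 0.0982, adjusted p = 0.00486). Its interaction was 0.63 (SE 0.112, adjusted p = 0.0216), a call lost on leaving out any 1 of 8 of the 12 libraries (adjusted p up to 0.0765).

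In the interaction, 2 bZIP genes (Atf3 and Jdp2) and 1 gene of the NR4A list (Txnip) passed with limma, and 0 genes of the other 4 lists did, with limma or with edgeR. With GC trends removed, where 399 of all genes were called, 3 upstream genes were positive, and 1 AP-1 target and 1 EGR1 target were negative. Over all genes 1784 had an unadjusted p under 0.05. Without unirradiated Bub1KO replicate 1, the interaction was called for 1447 of all 14721 genes, against 81 with it. In that fit 2 upstream genes were positive and 3 negative, and 0 immediate-early genes were positive and 6 negative. For AP-1 targets 2 were positive and 3 negative, and for EGR1 targets 1 was positive and 2 negative. For bZIP genes 0 were positive and 3 negative, and in the NR4A list 1 gene was positive and 3 negative.

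**Figure D5:**
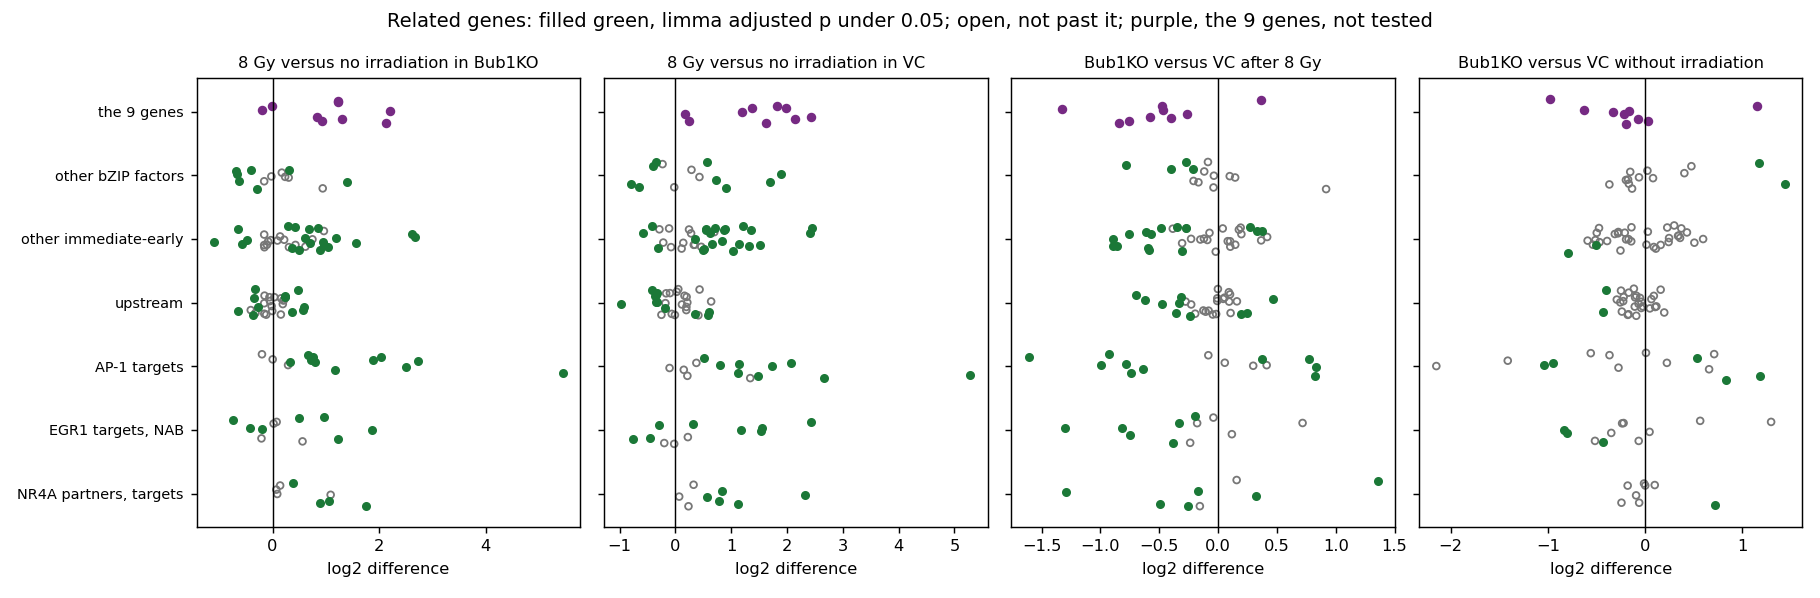
Log2 differences (horizontal axis, each panel on its own scale) of the 9 genes (purple, not tested) and of 6 lists of related genes (filled green, limma adjusted p under 0.05; open grey, not past it), from left to right for irradiation in Bub1KO, irradiation in VC, Bub1KO against VC after 8 Gy and Bub1KO against VC without irradiation. In the panel after 8 Gy, 8 of the 9 genes lie left of 0 and Nr4a3 lies at 0.37.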

How the data were processed

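RNA-seq libraries were grouped by the genotype and treatment labels. Per the labels' protocols, total RNA was made into stranded libraries after ribosomal RNA removal. Per the submitters' processing notes, Trim Galore, cutadapt, STAR, SAMtools and HTSeq were used with GRCm38.p6 (mm10). The deposited sample columns hold a signal, the authors' read count divided by 1 size factor per library (0.775 to 1.41), and both tables share 1 scaling. Per the file headers, the authors also deposited log2 fold changes, a test score and p-values, which were not used.

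Dividing each column by its smallest value above 0 gave whole reads for 100% of values (tolerance 0.01 of a read). Exon lengths came from GENCODE M21, matched for 55240 of 55421 identifiers. The test was limma-trend (limma 3.58.1, R 4.3.3) on log2(value + 1), which understates changes of low genes, for the 14721 genes that reached a value of 10 in 3 or more of the 12 libraries, with Benjamini-Hochberg adjustment. Genotypes were compared on the 6 libraries of each treatment, and the other comparisons used all 12. The procedure was tested on simulated data with the same spread setting for every gene, no GC trend and no library that stood apart. Changes were set only in genes of higher mean value, so recovery of changes in low genes was not tried. Alternatives were edgeR 4.0.16 and DESeq2 1.42.0 on the recovered reads, other pseudocounts, filters and scalings, removal of GC trends, a replicate block, a fit on all 12 libraries and leaving out each library.

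The 10 genes and the 6 lists (131 other genes) were chosen with earlier results of these data known. In each list, comparison and direction the 3 called genes of largest difference at most were eligible to be named, and those named were picked among them after their values were seen. Likeness was set to be computed for Nr4a1, Fos, Fosl1, Jun and Egr1 alone, and Fosl1 gave none since it did not pass the filter.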

Additional observations from a re-analysis of the deposited data

Results flagged for a closer look

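The effect of irradiation differed between the genotypes in 3 related genes, by a test of the difference itself. Atf3 had an interaction of -1.72 (SE 0.180, limma adjusted p = 0.000754), with 455 normalized counts in irradiated against 407 in unirradiated Bub1KO and 551 in irradiated against 148 in unirradiated VC, and the call held in all 22 alternatives run for it. Jdp2 had an interaction of -1.58 (SE 0.293, limma adjusted p = 0.0279), lower in irradiated than in unirradiated Bub1KO and higher in irradiated than in unirradiated VC, and the call was lost in 10 of 22 alternatives. Txnip had an interaction of 0.63 (SE 0.112, limma adjusted p = 0.0216), with a log2 difference with irradiation of 1.75 in Bub1KO and 1.12 in VC, and the call was lost in 8 of 22 alternatives.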

How the results depend on the processing

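Of 45 differences of the members, 39 kept their sign in all alternatives run. The exceptions were Nr4a1 and Junb between unirradiated genotypes, Nr4a1 with irradiation in VC, Nr4a2 with irradiation in Bub1KO, and the interactions of Fos (-0.21 without unirradiated VC replicate 3) and Egr1 (-0.15 without unirradiated Bub1KO replicate 1). Of the 106 calls of related genes eligible to be named, 71 held in all alternatives run for them. These are at most the 3 of largest difference per list, comparison and direction. The other calls of the lists were not followed singly. Between unirradiated genotypes 591 genes were called, against 329 with no filter, 1687 with GC trends removed, 1769 in the fit on all 12 libraries, and 172 (without VC replicate 2) to 2736 (without Bub1KO replicate 1) with 1 library left out. After 8 Gy 4512 were called, against 2062 with no filter, 2105 in the fit on all 12 libraries and 3045 to 4744 with 1 library left out. The interaction was called for 81 genes, against 269 with DESeq2, 399 with GC trends removed, and 33 (without irradiated VC replicate 1) to 1447 (without unirradiated Bub1KO replicate 1) with 1 library left out. Irradiation gave 7269 calls in Bub1KO and 7861 in VC, within 1.5 times of these under each alternative. The cause of these changes was not tested. Low counts limit Egr1, Fosb, Junb and Fos in unirradiated cells. There Junb rests on 8 to 25 reads per library in Bub1KO and 9 to 22 in VC. Fos rests on 13 to 27 in Bub1KO and 15 to 29 in VC.

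Same-numbered libraries did not deviate together (18 correlations from -0.193 to 0.196, 1 above 0.1, and 2 of 12 libraries correlating best with their own number), so the numbers were not taken as a pairing. With the replicate block 312 genes were called between unirradiated genotypes and 47 in the interaction, and with the block and GC trends removed 1252 and 267.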
